A study of Mus musculus with 6 samples.

Results

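The genes described here are the enzymes and the chaperone that hydroxylate, fold and crosslink collagen chains, in primary mouse chondrocytes after knockdown of Pkm2. Pkm2 is an isoform of Pkm, the gene of a pyruvate kinase of glycolysis. The 10 genes were taken by name from the deposited expression table, out of 55416 genes listed there. They are the prolyl 4-hydroxylase α subunits P4ha1, P4ha2 and P4ha3, the lysyl hydroxylases Plod1, Plod2 and Plod3, the collagen chaperone Serpinh1, and the lysyl oxidases Lox, Loxl2 and Loxl4. RNA of wild-type chondrocytes labelled as coming from neonatal mouse knee joints was sequenced after transfection with either of a pair of siRNAs, a scrambled control (siNC) and an siRNA to Pkm2 (siPkm2), in 3 libraries each. The supplementary methods of the study instead describe chondrocytes of mice several weeks old. The genotype labels of the siPkm2 libraries of replicates 2 and 3 name PKM3 and PKM4, whereas their titles name siPKM2 as for replicate 1, and all were taken as siPkm2. The labels do not say whether replicates came from separate animals, so that p-values measure the spread between these libraries only. Levels in bulk RNA do not tell fewer cells of a type from less RNA per cell.

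Fibrillar collagens are made as procollagen chains in the endoplasmic reticulum, where prolyl 4-hydroxylases hydroxylate prolines that stabilize the triple helix and lysyl hydroxylases hydroxylate lysines that later carry sugars and crosslinks. The chaperone HSP47, encoded by Serpinh1, binds the folded helix until it leaves the endoplasmic reticulum. Outside the cell, lysyl oxidases oxidize lysine and hydroxylysine residues, which then join neighbouring collagen molecules. Prolyl and lysyl hydroxylases need iron, oxygen, ascorbate and 2-oxoglutarate, and lysyl oxidases carry copper. In cartilage the main substrate is type II collagen.

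Total counts lay between 22316996 and 25691029 per library, and all 10 genes passed the filter on low counts with the 15269 genes tested. Pkm, counted without separating its PKM1 and PKM2 isoforms, stood at 2335, 2746 and 1674 CPM (counts scaled to a common library total, with TMM factors) in siNC and at 336, 541 and 309 CPM in siPkm2. Wherever the libraries of a group are listed, they stand in the order of replicates 1, 2 and 3. All siPkm2 libraries lay below all siNC libraries, in the direction of their labels. Replicate 2 stood apart in both groups. The summed level of 10 chondrocyte markers, Col2a1 and Acan among them, was 4088 and 5468 TPM (scaled also for length) in the siNC and siPkm2 libraries of replicate 2. It was between 15678 and 19876 TPM in the other 4 libraries. The summed level of 6 macrophage markers was 118 and 87.6 TPM in replicate 2 and between 10.6 and 26.4 TPM elsewhere. None of these markers was at 0 in every library. Because libraries of the same number deviated together, each change is given without and with the replicate number as a block in the fit, and "rose" or "fell" is written only of genes with an adjusted p under 0.05 with that block. Of the genes given below with their values in every library, and Col5a1, none that passed with the block did so without the pair of replicate 1 or without that of replicate 3, where their adjusted p lay between 0.0642 and 0.235, and all of them passed without the pair of replicate 2. The same held for Pkm, the target, at an adjusted p of 0.0642 without the pair of replicate 1 and 0.0799 without that of replicate 3. In either of these fits 0 of all genes were called at a fold over 2.

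The siRNA strands are shown because a short match between the seed of an siRNA (bases 2 to 8 of the strand that guides cleavage) and a transcript is a known route for effects on genes other than the target. The study selected the third of its siPkm2 sequences, and the text ties none of them to the sequenced libraries by number. The antisense strands of the scrambled control and of that siPkm2 sequence are given 5′ to 3′ with the seed in capitals.
scrambled siNC: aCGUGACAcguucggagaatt
siPkm2 #3: uGUUUCUCcagacagcaugtt
The site for the siPkm2 #3 seed, read on the transcript as GAGAAAC, occurred in 0 of the 10 genes, each searched in its longest annotated 3′ untranslated region (GENCODE M21, GRCm38). The same search found it in 2372 of 13273 tested genes, or 17.9%. The median length of the region was 1275 bases among the 10 genes and 1407 bases among the tested genes. The seed of siPkm2 #2 had 1 site in P4ha3, and those of the scrambled control and siPkm2 #1 had none in the 10 genes.

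The 10 genes did not move in a common direction. Loxl4 was over 4-fold higher in siPkm2 than in siNC in each of the 3 replicate pairs, Plod2 was 1.75-fold higher, and P4ha2 was at 0.727 times its siNC level. The fitted values of the other 7 genes, with the block, lay between 0.822 times the siNC level for Lox and 1.27 times for Loxl2. Without the block, 0 of the 10 genes were called at a fold over 2 and an adjusted p under 0.05 by edgeR's quasi-likelihood test, as were 0.0% of the genes tested, and 2 of the 10 had an unadjusted p under 0.05 against 17.6% of all genes. With the block, 1 of the 10 was called, Loxl4, against 5.83% of all genes and 2.65% that were called as higher, and 3 passed at any fold, against 23.1%. Loxl4 and Plod2 rose, where 12.3% of all genes rose, and P4ha2 fell, where 10.8% fell. DESeq2's Wald test without the block called Loxl4 (adjusted p = 0.0233), against 2.79% of all genes, and also gave Plod2 an adjusted p of 0.00119 at a smaller fold, where 5.38% of all genes passed at any fold. The median log2 fold change of the 10 genes was 0.05 with and without the block, beside -0.01 and -0.02 over all genes tested. In 7 of the 10 genes all pairs moved the same way, against 61.1% of all genes: Plod2, Plod3, Loxl2 and Loxl4 were higher in siPkm2 in every pair, as were 30.5% of all genes, and P4ha2, P4ha3 and Serpinh1 were lower in every pair, as were 30.6%. Pairs were counted by sign alone, and Serpinh1 was level in the pair of replicate 3, at 0.999 times its siNC value. The groups did not overlap for Plod2 and P4ha2, against 24.3% of all genes. These shares lay close to those of all genes, and nothing about the 10 genes as a set follows from them.

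**Figure D1:**
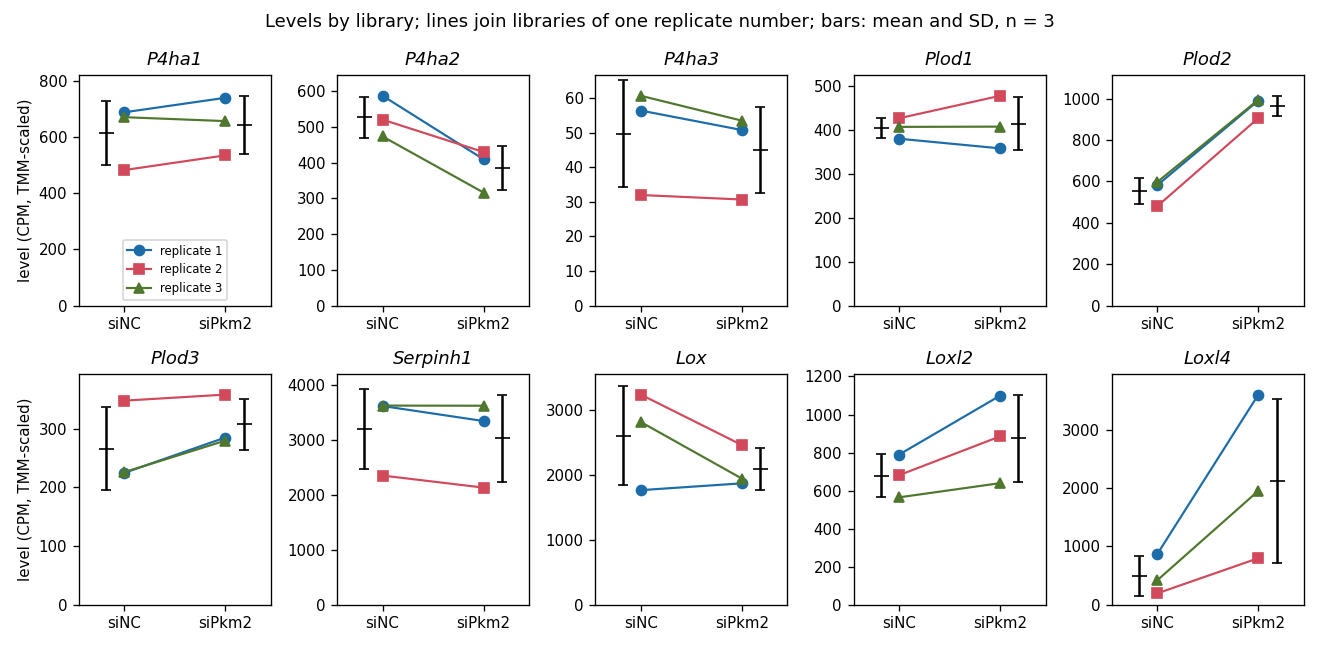
Level of each of the 10 genes in the 6 libraries (y axis, TMM-scaled CPM from 0; x axis, siRNA), with lines joining libraries of the same replicate number and black bars giving the mean ± SD of each group (n = 3). All Plod2 lines rise by a like amount, the Loxl4 lines rise from widely spaced starting levels, and the P4ha1, P4ha3 and Serpinh1 lines are nearly flat with replicate 2 lowest.

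**Figure D2:**
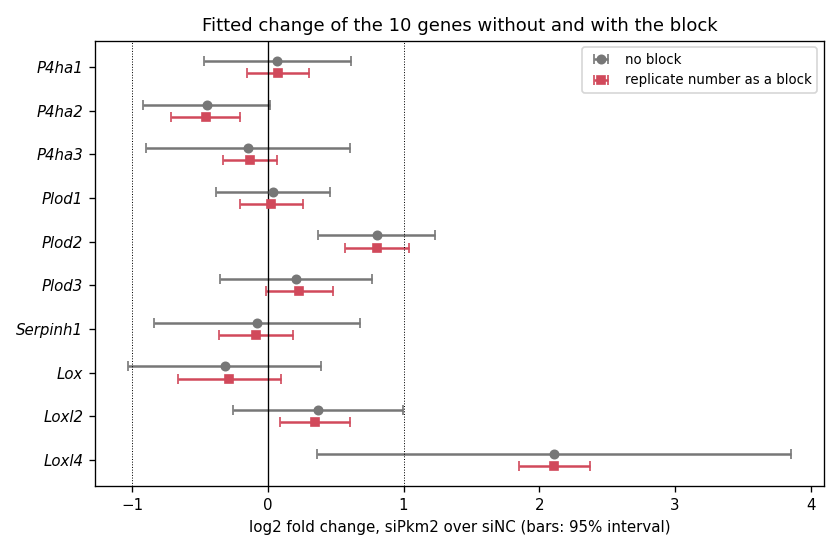
Fitted log2 fold change of siPkm2 over siNC (x axis) for the 10 genes, without (grey circles) and with (red squares) the replicate number as a block; bars are 95% intervals and dotted lines mark a fold of 2 in either direction. The Loxl4 interval narrows from 0.36 to 3.85 without the block to 1.85 to 2.37 with it.

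Of the prolyl 4-hydroxylase α subunits, which hold the catalytic site of the enzyme, P4ha2 fell. P4ha2 (chromosome 11, 54100095 to 54131665, plus strand; positions are those of GENCODE M21 on GRCm38) was at 587, 520.5 and 473 CPM in siNC and at 409, 429.9 and 316 CPM in siPkm2. Every siPkm2 library lay below every siNC library. The log2 fold change was -0.46 ± 0.10 (SE; adjusted p = 0.0315) with the block and -0.45 ± 0.19 (adjusted p = 0.293) without it. The change lay within 0.668 to 0.826 of the siNC level in the pairs. P4ha1 (chromosome 10, 59323296 to 59373304, plus strand), the most widely expressed α subunit, was at 688, 482 and 670.3 CPM in siNC and at 739, 535 and 656 CPM in siPkm2. The groups overlapped and the libraries of replicate 2 were the lowest of each group. Its log2 fold change with the block was 0.07 (95% interval -0.16 to 0.30; adjusted p = 0.577), which leaves out a change of the size of that of P4ha2, as the interval without the block (-0.47 to 0.61) does not. P4ha3 (chromosome 7, 100285520 to 100319699, plus strand), the third α subunit, was at 56.3, 31.96 and 60.6 CPM in siNC and at 50.7, 30.7 and 53.4 CPM in siPkm2. It was lower in siPkm2 in each pair, by less than the spread between replicates, with a log2 fold change of -0.13 (95% interval -0.33 to 0.07; adjusted p = 0.269) with the block.

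On the TPM scale, which allows for length by lengths that are not given, P4ha2 led P4ha1 in all 3 siNC libraries and in 1 siPkm2 library. P4ha1 made up 41.9%, 37.5% and 45.7% of the summed TPM of the 3 subunits in siNC replicates 1, 2 and 3, and 51.7%, 43.9% and 54.0% in siPkm2. The share was higher in each pair, by 8.19 percentage points on average, while the groups overlapped (exact two-sided permutation test, p = 0.2). P4ha3 held between 3.34% and 6.28% in the 6 libraries. The summed TPM of the 3 subunits was 782 ± 31.0 (SD, n = 3) in siNC and 663 ± 42.4 in siPkm2, and the groups did not overlap (exact permutation p = 0.1, the smallest that 3 against 3 libraries allow). P4hb, the protein disulfide isomerase that serves as the β subunit shared by all 3 enzymes, was at 1858, 1575 and 1809 CPM in siNC and at 2617, 1972 and 2574 CPM in siPkm2. P4hb rose in every pair, opposite to P4ha2, with a log2 fold change of 0.44 ± 0.11 (SE; adjusted p = 0.0379) with the block and 0.45 (adjusted p = 0.355) without it.

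P4ha1, P4ha2, Plod2 and Lox are textbook targets of hypoxia-inducible factors, whose binding sites hold the letters ACGTG or GCGTG. RefSeq promoters (GRCm38.p6, 250 bases before to 50 bases after the start) were given for 7 of the 10 genes, and these letters were sought on both strands, with overlaps counted. No promoter was given for Plod2, Lox and Loxl2, so that Plod2 and Lox, named above as targets, were not searched. At least 1 match was found in 6 of the 7, or 85.7%, in 60.5% of the promoters of tested genes and in 43.8% of all promoters. The promoters of P4ha1 with 3 matches, P4ha2 with 4 and Loxl4 with 1 are shown 5′ to 3′ on the strand of the gene, since these subunits differed in their values and Loxl4 had the widest change, with matches in capitals (CACGT and CACGC are the letters on the other strand).
P4ha1 promoter, chr10:59323046-59323345, plus strand: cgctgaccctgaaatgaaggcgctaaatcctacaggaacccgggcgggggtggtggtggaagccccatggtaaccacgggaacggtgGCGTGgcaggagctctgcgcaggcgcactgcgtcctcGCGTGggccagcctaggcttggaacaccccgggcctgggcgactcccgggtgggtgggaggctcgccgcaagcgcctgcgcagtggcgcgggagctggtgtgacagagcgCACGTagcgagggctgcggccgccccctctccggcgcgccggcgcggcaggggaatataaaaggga
P4ha2 promoter, chr11:54100674-54100973, plus strand: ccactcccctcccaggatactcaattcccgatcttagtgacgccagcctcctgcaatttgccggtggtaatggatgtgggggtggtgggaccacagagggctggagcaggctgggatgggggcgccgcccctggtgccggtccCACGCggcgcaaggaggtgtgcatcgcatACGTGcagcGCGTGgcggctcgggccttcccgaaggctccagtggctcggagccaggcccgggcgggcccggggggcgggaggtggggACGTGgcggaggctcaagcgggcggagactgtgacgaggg
Loxl4 promoter, chr19:42612757-42613056, minus strand: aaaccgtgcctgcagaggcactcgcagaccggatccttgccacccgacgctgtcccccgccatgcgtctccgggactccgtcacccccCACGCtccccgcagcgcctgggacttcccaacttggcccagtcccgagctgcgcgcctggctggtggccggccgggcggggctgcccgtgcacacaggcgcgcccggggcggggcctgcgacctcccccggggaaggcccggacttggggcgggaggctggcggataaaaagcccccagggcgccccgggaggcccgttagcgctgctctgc
P4ha1 and P4ha2 thus both held matches, and P4ha3 was the gene with none. The P4ha2 window lies inside the GENCODE span of the gene, which begins at 54100095, whereas the P4ha1 window spans the first base of its gene. The match counts of these genes therefore come from unlike positions. The other counts were 4 in Plod3, 2 in Plod1 and 1 in Serpinh1. Whether matches go with the changes was not tested.

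Among the lysyl hydroxylases, Plod2 rose. Plod2 encodes the enzyme that hydroxylates lysines of the telopeptides at the ends of the chains, from which the most stable crosslinks form. Plod2 (chromosome 9, 92542223 to 92608428, plus strand) was at 582, 480.3 and 597 CPM in siNC and at 990.2, 906 and 994 CPM in siPkm2. The groups were far apart, at 553 ± 63.5 and 963 ± 49.8 CPM (SD, n = 3), and the fold was 1.70, 1.89 and 1.66 in the pairs. The log2 fold change was 0.81 ± 0.09 (SE; adjusted p = 0.0122) with the block and 0.80 ± 0.18 (95% interval 0.37 to 1.23; adjusted p = 0.132) without it. Its unadjusted p of 0.00351 without the block was the lowest of the 10 genes.

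Plod1 (chromosome 4, 147909753 to 147936767, minus strand), which hydroxylates lysines of the helical part, was at 379, 426 and 406 CPM in siNC and at 357, 477 and 407 CPM in siPkm2. It was lower in the pair of replicate 1, higher in that of replicate 2 and level in that of replicate 3. Its log2 fold change of 0.03 with the block had a 95% interval of -0.21 to 0.26. Plod3 (chromosome 5, 136987019 to 136996648, plus strand), which also adds sugars to hydroxylysine, was at 225, 348 and 226 CPM in siNC and at 285, 359 and 280.1 CPM in siPkm2. It was higher in each pair, with the groups overlapping, and its log2 fold change of 0.23 with the block (95% interval -0.02 to 0.48; adjusted p = 0.141) did not pass, although without the pair of replicate 2 the adjusted p was 0.0241.

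On the TPM scale Plod2 led the lysyl hydroxylases in siNC replicates 1 and 3 and in all siPkm2 libraries, and made up 42.1%, 33.4% and 43.7% of their summed TPM in siNC replicates 1, 2 and 3. In siPkm2 it made up 54.4%, 46.6% and 54.0%, above every siNC library (difference of 11.9 percentage points; exact permutation p = 0.1, the smallest possible). The mean share in siPkm2 less that in siNC was -6.91 percentage points for Plod1, without overlap between the groups (exact permutation p = 0.1), and -5.04 percentage points for Plod3 (exact permutation p = 0.2). The summed TPM of the 3 enzymes was 709.6 ± 85.0 (SD, n = 3) in siNC and 911 ± 96.1 in siPkm2, without overlap. The exact permutation p of this sum was 0.1, the smallest possible, its value adjusted over the 14 shares and sums compared was 0.311, as for the prolyl 4-hydroxylase sum, and the within-pair sign-flip test gave an exact p of 0.25 for both sums.

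**Figure D3:**
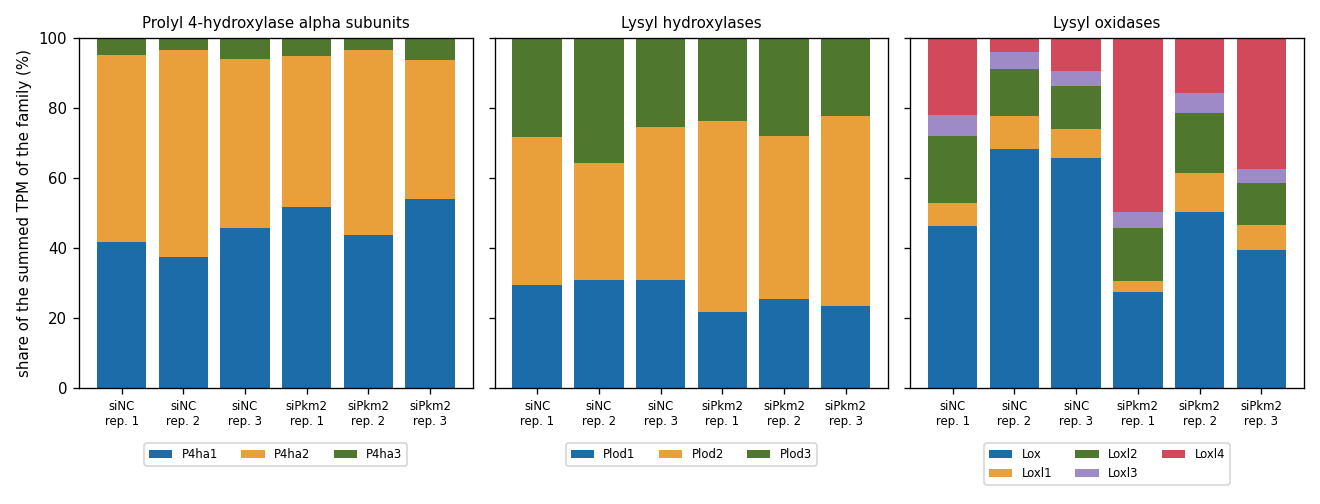
Share of each gene in the summed TPM of its family (y axis, %) in the 6 libraries (x axis), for the prolyl 4-hydroxylase α subunits, the lysyl hydroxylases and the lysyl oxidases. The Plod2 share lies between 33.4% and 43.7% in siNC and between 46.6% and 54.4% in siPkm2, and the Loxl4 share is larger in siPkm2 in each replicate pair.

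Serpinh1 (chromosome 7, 99345376 to 99353239, minus strand), the collagen-specific chaperone, had the highest TPM of the 10 genes in all 6 libraries, between 1744 and 2985. It was at 3623, 2354 and 3631 CPM in siNC and at 3349, 2134 and 3629 CPM in siPkm2. Replicate 2 was the lowest library of each group, and the difference between the siRNAs was far smaller than that between replicates. The log2 fold change with the block was -0.09 (95% interval -0.36 to 0.19; adjusted p = 0.589).

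Loxl4 had the widest change of the 10 genes. Loxl4 (chromosome 19, 42593982 to 42612813, minus strand), a lysyl oxidase-like enzyme with scavenger receptor domains, was at 869, 193 and 418 CPM in siNC and at 3616, 798 and 1959 CPM in siPkm2. The groups overlapped, since siPkm2 replicate 2 lay below siNC replicate 1, yet every siPkm2 library lay above its own siNC partner, by 4.16, 4.14 and 4.69-fold. Replicate 2 was at 0.299 times the mean of replicates 1 and 3 in siNC and at 0.286 times in siPkm2, so that its level differed between replicates by about the same factor in both groups. The log2 fold change was 2.11 ± 0.10 (SE; adjusted p = 0.00932) with the block, a fold of 4.32 with a 95% interval of 3.61 to 5.18. Without the block the same fold had a standard error of 0.73 on the log2 scale (adjusted p = 0.22), and the log2 fold change was 2.81 without siNC replicate 1 and 1.47 without siPkm2 replicate 1. Without the pair of replicate 2 the adjusted p with the block was 1.04e-04, and without the pairs of replicates 1 or 3 it was 0.0642 and 0.0799. Pkm, the target, also had an adjusted p of 0.0642 and 0.0799 without the pairs of replicates 1 or 3. Plod2 and P4ha2, which passed at a smaller fold, also lost their adjusted p under 0.05: with the block but without the pairs of replicates 1 or 3 their adjusted p was 0.074 and 0.10 for Plod2 and 0.172 and 0.217 for P4ha2, and without the pair of replicate 2 it was 0.00157 for Plod2 and 0.00377 for P4ha2.

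Lox (chromosome 18, 52516067 to 52529867, minus strand), the founding member of the lysyl oxidases, was at 1764, 3237 and 2814 CPM in siNC and at 1869, 2459 and 1942 CPM in siPkm2. It was higher in siPkm2 in the pair of replicate 1 and lower in the other 2 pairs. The log2 fold change with the block was -0.28 ± 0.15 (SE; 95% interval -0.67 to 0.10; adjusted p = 0.221). Loxl2 (chromosome 14, 69609068 to 69695834, plus strand), which is known to crosslink type IV collagen of basement membranes, was at 789, 681 and 564 CPM in siNC and at 1099, 885 and 639 CPM in siPkm2. All pairs were higher in siPkm2 and the groups overlapped. The log2 fold change with the block was 0.35 ± 0.10 (95% interval 0.09 to 0.60), with an adjusted p of 0.0631 by edgeR and 0.0166 by DESeq2 with the same block.

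On the deposited TPM scale Lox led the 5 lysyl oxidases in all 3 siNC libraries and in siPkm2 replicates 2 and 3, while Loxl4 led in siPkm2 replicate 1. In siPkm2 replicate 3 Lox stood at 647 TPM and 1942 CPM, and Loxl4 at 615 TPM and 1959 CPM. By the deposited gene lengths, 4468 bases for Lox and 2617 for Loxl4, the order in that library would be the other way. The Lox share of the summed TPM was 46.3%, 68.4% and 65.8% in siNC and 27.6%, 50.3% and 39.4% in siPkm2. It was lower in each pair, with a mean difference of -21.0 percentage points, and the groups overlapped (exact permutation p = 0.2). The Loxl4 share was 21.8%, 3.84% and 9.50% in siNC and 49.7%, 15.6% and 37.4% in siPkm2 (exact permutation p = 0.2). The mean shares of Loxl1, Loxl2 and Loxl3 in siPkm2 less those in siNC were -0.93, -0.24 and -0.30 percentage points. Loxl1 and Loxl3, the lysyl oxidases outside the 10 genes, had log2 fold changes of 0.02 and 0.22 with the block and did not pass. Among the 10 genes, Loxl4 had rank 5, 9 and 9 by TPM in siNC and rank 2, 8 and 3 in siPkm2. Over the 14 shares and sums compared across the 3 families, the lowest Benjamini-Hochberg adjusted value of the exact p was 0.311. The permutation test takes no account of the pairs. The within-pair sign-flip test gave an exact p of 0.25, the smallest that 3 pairs allow, for the shares of P4ha1, Plod2, Lox and Loxl4.

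The replicate number held a larger share of the variation than the siRNA in 7 of the 10 genes, as in 9981 of the 15269 genes tested. The replicate number has more levels than the siRNA, which by itself raises its share. Of the variation of log2(CPM + 0.5) over the 6 libraries, the replicate number held a median of 70.6% and the siRNA 19.0% for the 10 genes, beside 56.6% and 24.4% for all genes tested. The replicate share was 97.3% for Serpinh1, 96.8% for P4ha3 and 94.0% for P4ha1, in each of which replicate 2 was the lowest library of both groups. The siRNA share was the larger for Plod2 at 93.3%, P4ha2 at 66.2% and Loxl4 at 58.4%, which are the genes that passed the test with the block. In Lox the replicate number held 64.4% and the siRNA 19.0%.

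**Figure D4:**
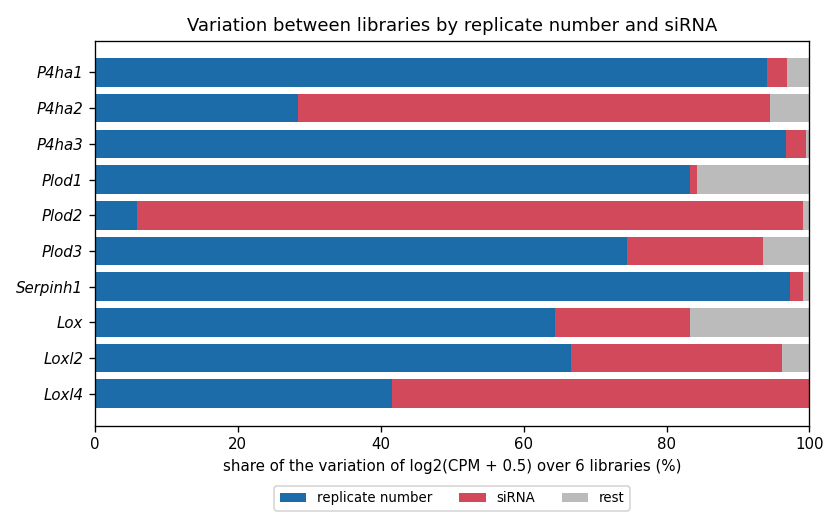
Share of the variation of log2(CPM + 0.5) over the 6 libraries (x axis, %) that goes with the replicate number (blue), with the siRNA (red) and with neither (grey), for each of the 10 genes. The red part is the widest for Plod2, P4ha2 and Loxl4, and the blue part exceeds 90% for P4ha1, P4ha3 and Serpinh1.

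A further 28 genes of collagen folding, modification, export and processing were all tested. With the block 0 of them were called at a fold over 2, against 5.83% of all genes. At any fold 7 passed, against 23.1% of all genes. P4hb, P3h1, P3h2, Adamts2 and Tmem38b rose, P3h3 and Sec23a fell, and 21 did not pass. None passed without the block by edgeR, where 3 had an unadjusted p under 0.05, against 17.6% of all genes. DESeq2 without the block called 1 at a fold over 2, Adamts3, against 2.79% of all genes. Adamts3 was low, between 1.71 and 6.03 CPM in the 6 libraries. The median log2 fold change of the list with the block was 0.14, beside -0.01 over all genes. P3h3, of the prolyl 3-hydroxylase family, was at 138, 158 and 176 CPM in siNC and at 71.4, 96.7 and 93.4 CPM in siPkm2. The groups did not overlap, and the log2 fold change was -0.86 ± 0.09 (SE; adjusted p = 0.0112) with the block and -0.85 (adjusted p = 0.124) without it. DESeq2's Wald test without the block gave P3h3 an adjusted p of 0.00674. P3h1 and P3h2, enzymes of the same family, had log2 fold changes of 0.41 and 0.65 with the block, so that the family did not move one way. Tmem38b, an ion channel of the endoplasmic reticulum whose loss impairs collagen modification, was low, at 8.49, 24.4 and 7.66 CPM in siNC and at 16.5, 36.8 and 16.5 CPM in siPkm2. It was higher in each pair (log2 fold change of 0.87 ± 0.14, adjusted p = 0.0169, with the block; 0.78, adjusted p = 0.515, without it), and it was highest in replicate 2 of each group.

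Of 11 fibrillar collagen chains, the substrates of the 10 genes, Col5a2 and Col5a1 rose with the block, against 12.3% of all genes, and 9 did not pass. Col5a2, a chain of type V collagen that sets the width of fibrils, was at 1813, 1315 and 1373 CPM in siNC and at 3214, 2906 and 2419 CPM in siPkm2. The groups did not overlap, and the log2 fold change was 0.93 ± 0.12 (SE; adjusted p = 0.0133) with the block and 0.92 (adjusted p = 0.152) without it. DESeq2's Wald test without the block gave Col5a2 an adjusted p of 0.00667. Col5a1, its partner chain, had a log2 fold change of 0.53 ± 0.11 (adjusted p = 0.0283) with the block and 0.50 (adjusted p = 0.539) without it. Col2a1, the chain of type II collagen, was at 36071, 8526 and 34887 CPM in siNC and at 28381, 11449 and 27892 CPM in siPkm2. Its libraries of replicate 2 were the lowest by far in both groups, and its log2 fold change with the block was -0.08 (95% interval -0.62 to 0.46). Col1a1, of type I collagen, was at 2956, 3070.0 and 5727 CPM in siNC and at 1404, 3164 and 3258 CPM in siPkm2, with a log2 fold change of -0.62 (adjusted p = 0.111) with the block. DESeq2 with the same block gave Col1a1 an adjusted p of 0.0203, and without the pair of replicate 2 its log2 fold change was -0.95 (adjusted p = 0.00155 by edgeR with the block).

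Set against their substrates, the summed TPM of the 10 genes was 0.312, 0.772 and 0.291 times that of the fibrillar collagens in siNC replicates 1, 2 and 3 and 0.442, 0.576 and 0.370 times in siPkm2. The ratio was higher in siPkm2 in the pairs of replicates 1 and 3 and lower in that of replicate 2. The summed collagen TPM was lowest in replicate 2 of both groups, and in that pair it was higher in siPkm2 (8371) than in siNC (6498). The mean log2 difference was 0.14 (exact permutation p = 0.8). For the lysyl hydroxylases over Col1a1 and Col1a2 the ratio was higher in every pair, by 0.85 on the log2 scale (exact permutation p = 0.2). Over the 18 ratios of this kind that were compared, the lowest Benjamini-Hochberg adjusted value was 0.96.

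Of 18 genes of the hypoxia response, given because several of the 10 genes are known to belong to it, 1 was called with the block and lower, Car9, against 3.18% of all genes. At any fold 4 fell (Car9, Adm, Ndrg1 and Pdk1), 2 rose (Slc2a1 and Kdm3a) and 12 did not pass, against 10.8% and 12.3% of all genes that fell and rose, with a median log2 fold change of 0.01. DESeq2's Wald test without the block passed 1 of the 18 at any fold, Ndrg1 (adjusted p = 0.0265), against 5.38% of all genes. Car9, a carbonic anhydrase, was at 86.3, 269 and 98.6 CPM in siNC and at 26.8, 146 and 35.8 CPM in siPkm2 (log2 fold change of -1.34 ± 0.17, adjusted p = 0.0133, with the block; -1.12, adjusted p = 0.496, without it). Adm, which encodes the peptide adrenomedullin, was at 79.5, 590.4 and 115 CPM in siNC and at 35.7, 378 and 71.7 CPM in siPkm2 (log2 fold change of -0.82 ± 0.13, adjusted p = 0.0169, with the block; -0.69, adjusted p = 0.796, without it). Both were highest in replicate 2 of each group. Of the textbook hypoxia targets among the 10 genes, P4ha2 fell, Plod2 rose, and P4ha1 and Lox did not pass.

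**Figure D5:**
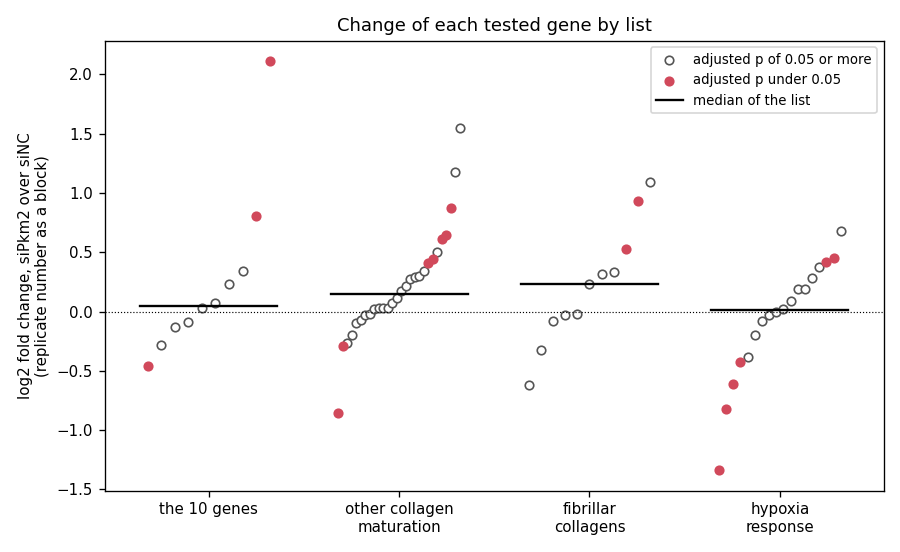
Log2 fold change of siPkm2 over siNC with the replicate number as a block (y axis) of each tested gene of the 10 genes, the 28 other collagen maturation genes, the 11 fibrillar collagens and the 18 hypoxia response genes (x axis). Red points have an adjusted p under 0.05, open points do not, and black lines are list medians, which lie between 0.01 and 0.23.

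Markers of other cell types moved beside these values. The 6 genes taken as synovial fibroblast markers were Thy1, Pdpn, Prg4, Pdgfra, Cd34 and Dpp4. Their summed TPM was 159, 434 and 224 in siNC and 288, 544 and 409.5 in siPkm2, higher in each pair. With the block 3 of the 6 rose, where 12.3% of all genes rose and 10.8% fell. The study lists PRG4 among matrix genes of a chondrocyte subgroup, so that this sum need not come from fibroblasts alone. The summed TPM of 5 osteoblast markers, 3 of them tested, was 289, 24.1 and 180.3 in siNC and 106, 15.2 and 41.7 in siPkm2, lower in each pair, and 1 fell. The chondrocyte markers summed to 18087.5, 4088 and 19876 TPM in siNC and to 15678, 5468 and 16177 TPM in siPkm2. Their sum was lower in siPkm2 in the pairs of replicates 1 and 3 and higher in that of replicate 2, and 1 of 10 rose. Endothelial markers summed to between 0.39 and 1.05 TPM and muscle markers to between 6.58 and 13.5 TPM. Of the 4 macrophage markers tested 1 rose, of the 4 muscle markers tested 1 rose and 1 fell, and the 1 endothelial marker tested did not pass. Their part in the changes of Loxl4, Plod2 and P4ha2 was not tested.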

How the data were processed

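The authors deposited a table of estimated counts, without normalization, and of TPM values, scaled by length and to a common total. The lengths behind the TPM values are not given, and the deposited gene length does not yield them. Plod1 and Plod3, of 3243 and 3280 bases, stood at 379 and 225 CPM but at 186 and 177 TPM in siNC replicate 1. In the pair of replicate 1 the fold of Plod3 was 1.27 by CPM, while its TPM was 177 in siNC and 197 in siPkm2. Orders, shares and ratios by TPM depend on these lengths. The same TPM values stand in a file of each library. The deposited table also holds the gene length in bases, and the authors' comparison of the groups as a fold change (a ratio), a log2 fold change, and p-values, none of which was used. The labels name the mm9 genome and edgeR; the aligner and the counting method are not given in the sources used here. Gene positions, transcripts and 3′ untranslated regions (at least 50 bases) came from GENCODE M21 on GRCm38, and promoters from RefSeq on GRCm38.p6. Whether the counting used strand is not stated.

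The 10 genes and the other lists were chosen with earlier results of these data known. Estimated counts were rounded, and tests were run in edgeR 4.0.16 (R 4.3.3), with limma 3.58.1 and DESeq2 1.42.0 as alternatives. Genes kept by filterByExpr (15269) were scaled by TMM factors and compared by edgeR's quasi-likelihood test over all 6 libraries with Benjamini-Hochberg adjustment over those 15269. Calls required a fold over 2 and an adjusted p under 0.05, as in the supplementary methods. The script was tested on simulated data. Shares, sums and ratios of TPM were compared by exact two-sided permutation tests of 3 against 3 libraries. Total counts were 22316996 to 25691029 per library. The parts of counting error and of spread between libraries were not separated, and genes of a few CPM carry more counting error.

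Replicate numbers 1 to 3 occur in both groups' labels, without a word on their meaning. They were taken to pair the libraries, because deviations of libraries of the same number from their group means correlated at 0.72, 0.79 and 0.72 across genes, and those of different numbers at -0.70 to 0.22. Values with the number as a block are given beside those without it. The alternatives tried were DESeq2, RLE and upper-quartile factors, limma on log2(TPM + 1), no filter or a minimum of 10 counts per library, any fold, and each library or pair left out. Besides the 10 genes and Pkm, genes named with full values were those of each list called with the block, or the genes of smallest p up to 2, and P4hb, Col1a1 and Col2a1; the other genes are named as members of a count.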

Additional observations from a re-analysis of the deposited data

How the results depend on the processing

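The numbers of calls depended on the replicate block and on the test. Without the block 0 genes were called; upper-quartile factors and a minimum of 10 counts in every library each gave 3, no filter gave 9, limma on log2(TPM + 1) gave 1, DESeq2 gave 430, and leaving out single libraries gave 0 to 105, the highest without siNC replicate 2. With the replicate block 890 genes were called, 1017 by DESeq2, 537 by limma, 3524 at any fold, 1639 without the pair of replicate 2, and 0 without either other pair. Of the 10 genes, 1 (Loxl4) was called by DESeq2 with and without the block, by limma with it, and with the block with all pairs or without that of replicate 2, and 3 passed at any fold with it. Of the other collagen maturation genes, 1 (Adamts3) was called by DESeq2, 2 (with Tll1) by DESeq2 with the block, 2 (Adamts3 and Tmem38b) with the block without the pair of replicate 2, and 7 passed at any fold with it. Tll1 was low, between 0.445 and 5.64 CPM in the 6 libraries. Of the fibrillar collagens, 1 (Col5a3) was called with the block without the pair of replicate 2 and 2 passed at any fold; of the hypoxia genes, 1 (Car9) was called with the block by edgeR, DESeq2 and limma and without that pair, and 6 passed at any fold. The block with its pairing changed no other call of the lists.

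The median log2 fold change of the 10 genes was -0.0157 with upper-quartile factors, -0.0118 with the block without the pair of replicate 2, and 0.000718 to 0.11 with single libraries left out. The log2 ratio to fibrillar collagen was -0.11 to 0.60 with single libraries left out, below 0 without siNC replicates 1 (-0.06) or 3 (-0.11) or siPkm2 replicate 2 (-0.03). With single libraries left out the log2 fold change ranged from -0.0756 to 0.19 for P4ha1, from -0.38 to 0.0734 for P4ha3, from -0.0757 to 0.13 for Plod1, from -0.25 to 0.13 for Serpinh1, from -2.28 to 0.74 for Adm and from -0.65 to 0.0907 for Col2a1. Without a change of direction it ranged from 1.47 to 2.81 for Loxl4, from -2.27 to -0.41 for Car9 and from 0.29 to 1.53 for Tmem38b. P4ha1 was at -0.000171 and Plod1 at -0.0313 with upper-quartile factors, Plod1 at -0.0103 by limma with and without the block and at -0.0513 with the block without the pair of replicate 2, and Col2a1 at 0.0514 and 0.0417 with the block without the pairs of replicates 1 and 3. The cause was not tested. The shares of P4ha1, Plod2 and Lox in their families kept their direction under every alternative run on them. Among the alternative values of named genes, 20 reversed, 52 passed where the fit without the block did not, and 288 did neither. With 3 libraries a group, the exact tests cannot give a p below 0.1.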
